A study of Mus musculus with 2 samples.

Results

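The 10 genes described here are those of the mouse myosin light chains Myl1, Myl2, Myl3, Myl4, Myl6, Myl6b, Myl7, Myl9, Myl12a and Myl12b. They were chosen by gene symbol, and all 10 were matched among the 43346 Ensembl genes in the deposited tables. The study measured total RNA (over 200 nucleotides) by sequencing in whole heart of healthy B6NCrl mouse embryos at embryonic day 13.5, with males and females pooled. It holds 2 libraries, biological replicates 1 and 2 of 1 group, each made from 10 ng of RNA, with no treatment, second genotype, other age or other tissue. Values of the 10 genes are therefore a description of this heart at 1 stage, and no test between groups was possible.

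Myosin is built from heavy chains, which carry the motor, and light chains, which wrap around the lever arm of each motor. Every heavy chain binds one essential light chain, which stiffens the lever, and one regulatory light chain, which kinases phosphorylate to tune or switch on contraction. In the heart the atrial and ventricular forms of both kinds come from different genes, and smooth muscle and non-muscle cells use further genes of their own. Ventricular Myl2 and Myl3 and atrial Myl7 and Myl4 are the textbook chamber pairs, although their borders are still being drawn in the embryo.

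The sequences below are coding bases from GENCODE M21 on GRCm38, each read 5′ to 3′ from the start codon. The first pair is shown because Myl1 gives rise to a long and a short light chain from separate start sites, and the data separate them. The long form opens with 141 bases of its own and the short form with 27, after which the same 423 bases follow in both. Capitals mark the first 21 of these shared bases.
Myl1-201, long form: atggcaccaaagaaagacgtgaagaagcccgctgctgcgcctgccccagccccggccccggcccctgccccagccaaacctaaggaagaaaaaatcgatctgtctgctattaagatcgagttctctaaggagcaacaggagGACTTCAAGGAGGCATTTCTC
Myl1-202, short form: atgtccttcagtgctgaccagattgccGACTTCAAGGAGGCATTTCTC

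The next set is shown because Myl12a and Myl12b are so alike that reads can fit both, which bears on how firmly their levels are known. Myl9, the nearest other regulatory chain, is printed beside them and has no window of 50 bases in common with either. The first 90 coding bases are given, and capitals mark bases that differ from Myl12a, 4 in Myl12b and 13 in Myl9.
Myl12a: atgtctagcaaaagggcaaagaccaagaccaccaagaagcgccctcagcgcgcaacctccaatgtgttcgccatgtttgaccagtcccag
Myl12b: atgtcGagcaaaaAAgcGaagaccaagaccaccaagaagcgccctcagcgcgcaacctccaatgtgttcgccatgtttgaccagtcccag
Myl9: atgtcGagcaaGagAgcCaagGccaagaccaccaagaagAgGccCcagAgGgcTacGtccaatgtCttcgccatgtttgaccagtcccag

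Replicate 1 holds 36733400 estimated counts and replicate 2 holds 36060765, and added spike-in RNAs took 5.96% and 2.56% of them. Their counts were too far apart for 1 library deposited a second time (chi-square 25.2 times its degrees of freedom over 13766 genes). That value cannot tell 2 preparations of 1 RNA from 2 samples, so they stand as 2 samples by the submitters' labels. Beside the tissue label, all 5 cardiomyocyte markers had a transcript level (TPM, explained below) above 1 in both libraries. So did all 4 hepatocyte markers, so that threshold alone does not check the label. The cardiomyocyte markers ranged from 8.47 TPM (Ryr2) to 9672 TPM (Actc1) on average. Hepatocyte markers stood apart between the libraries: the 4 genes summed to 40.3 TPM in replicate 1 and 271 TPM in replicate 2, and on scaled counts each was over 2-fold higher in the latter. Their part in the values below was not tested.

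Light chain messages were among the most abundant in the tissue. TPM, which divides estimated counts by transcript length and then scales each library to the same sum, put 9 of the 10 genes at 1 TPM or more in both libraries, against 57.3% of 21474 protein-coding genes. Of the 10, 8 were at 100 TPM or more in both libraries, where 5.43% of protein-coding genes lay, and 5 were at 1000 TPM or more, a level that 81 protein-coding genes reached. Together the 10 genes held 1.76% of all TPM in replicate 1 and 2.13% in replicate 2. That total includes spike-ins (11.1% and 5.04% of TPM) and globin genes (13.6% and 9.03%), so the TPM of other genes also moves with these. The exception was Myl6b, below 1 TPM in both.

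**Figure D1:**
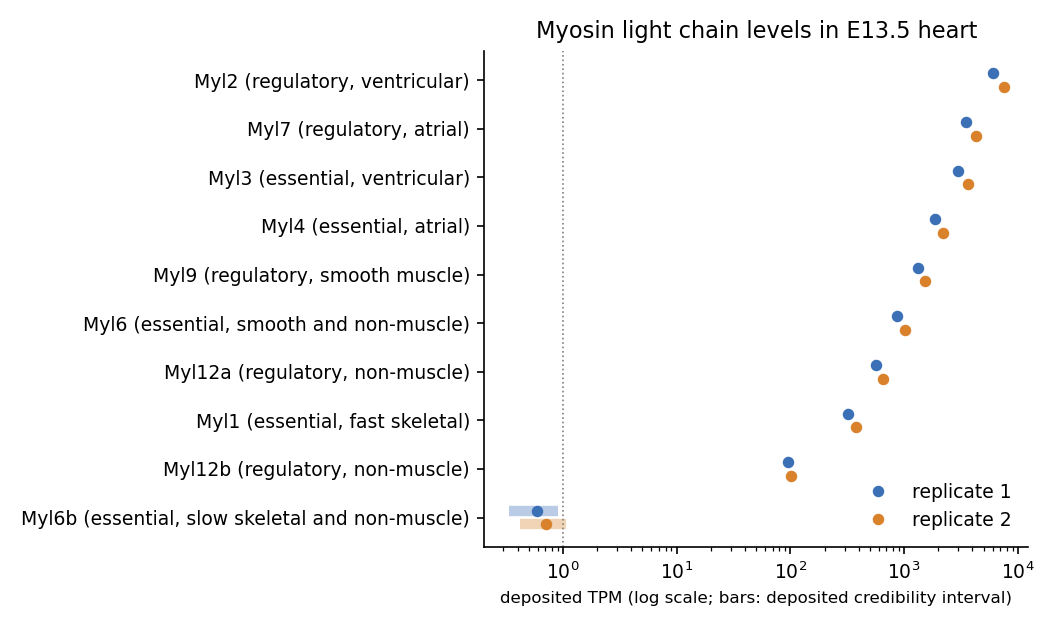
Deposited TPM of each light chain gene (log axis) in replicate 1 (blue) and replicate 2 (orange), ordered by mean; bars are the authors' credibility intervals, hidden by the points except for Myl6b, and the dotted line is 1 TPM. In all, 9 genes sit between 95.8 and 7508 TPM, and Myl6b sits below the line in both libraries.

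Among the regulatory chains, ventricular Myl2 led. This gene, on chromosome 5 (122100951 to 122113472, plus strand, GRCm38), had 6018 TPM in replicate 1 and 7508 TPM in replicate 2, from 99646 and 116244 estimated counts. Its mean of 6763 ± 1054 TPM (SD, n = 2) ranked 9 among the protein-coding genes. Atrial Myl7, on chromosome 11 (5896637 to 5898782, minus strand), had 3504 TPM and 4284 TPM (mean 3894 ± 551, SD, n = 2; rank 16). Both libraries of Myl2 lay above both of Myl7. The Myl2 share of the pair was 63.2% in replicate 1 and 63.7% in replicate 2, a spread far smaller than that of either gene's own level. In whole-heart RNA, fewer cells of a chamber and less RNA per cell cannot be told apart.

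The essential chains repeated that order at a lower level. Ventricular Myl3, on chromosome 9 (110741861 to 110769798, plus strand), had 3002 TPM in replicate 1 and 3648 TPM in replicate 2 (3325 ± 457, SD, n = 2; rank 20). Atrial Myl4, on chromosome 11 (104550663 to 104595753, plus strand), had 1864 TPM and 2224 TPM (2044 ± 254, SD, n = 2; rank 34). The 2 libraries of Myl3 lay above both of Myl4, and Myl3 held 61.7% and 62.1% of the pair. Among the heavy chains Myh7, the slow or β heavy chain and a listed ventricular gene, held a larger share, 72.5% and 73.8% of the sum of Myh6 and Myh7. The shares of the atrial light chain genes, 36.8% and 36.3% for Myl7 and 38.3% and 37.9% for Myl4, were within 2 percentage points of each other in each library. They are shares of messages in the whole heart and not of chambers. The Myl4 level includes Myl4-204, a transcript not annotated as coding, at 28.02% and 30.24% of the gene's TPM. Shares without it were not computed, so the closeness of Myl7 and Myl4 holds for whole-gene TPM only.

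Chamber genes outside the light chain family gave a mixed picture of levels. The lists follow the chamber each gene is best known for, and the chamber its RNA came from was not measured in whole heart. All 7 atrial genes on the list were at 1 TPM or more in both libraries, with a median of 23.5 TPM. The highest was Nppa, the atrial natriuretic peptide gene, at 3566 and 4645 TPM, above Myl7 in each library. Next came Sln (sarcolipin, an inhibitor of the calcium pump) at a mean of 87.1 TPM, the lipid-transfer gene Stard10 at 30.1 TPM and the T-box factor gene Tbx5 at 23.5 TPM. All 6 ventricular genes were also at 1 TPM or more, with a median of 261 TPM, led by Myh7 at 1746 TPM. Cited1, a transcriptional co-regulator, had 537 TPM, Pln (phospholamban) 484 TPM and the homeobox gene Irx4 38.4 TPM. Myl2 and Myl7 each lay far above the median of the chamber list they belong with. The lists mix genes of transcription factors with genes of muscle proteins, so that comparison does not bear on chamber.

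The remaining sarcomeric essential chain was Myl1, the fast skeletal muscle form, on chromosome 1 (66924295 to 66945404, minus strand). It had 323 TPM in replicate 1 and 380 TPM in replicate 2, from 6511 and 7256 estimated counts (352 ± 41, SD, n = 2; rank 329). That is 6.22% and 6.08% of the sarcomeric essential sum, and both libraries lay below both of Myl4. The short form Myl1-202, which starts at 66935354, held 94.97% of the gene's TPM in replicate 1 and 96.02% in replicate 2. The long form Myl1-201, which starts at 66945143, held 0.59% and 1.20%, or 1.90 and 4.58 TPM from 54.7 and 123 estimated counts. All 3 listed transcripts from the upstream start together held 0.92% and 1.32%. Nearly all reads assigned to Myl1 thus went to the form whose short opening is printed above, in both libraries.

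Markers of skeletal muscle, the tissue for which Myl1 is best known, were set beside it. Of 12 such markers, 6 were at 1 TPM or more in both libraries and 5 were below 1 TPM in both; their TPM summed to 433 in replicate 1 and 572 in replicate 2. Most of that sum was Acta1, the skeletal actin gene, at 227 and 309 TPM and Ckm, the muscle creatine kinase gene, at 172 and 218 TPM, both of which heart muscle also expresses. The fast troponin gene Tnni2 had 25.6 and 31.6 TPM and Tnnt3 had 3.13 and 4.47 TPM. Myod1, a defining skeletal muscle factor, was at 0.33 and 0.52 TPM, and Myog at 1.15 and 2.90 TPM (both named after their values were seen); none of the 12 was at 0 in either library. The fast skeletal regulatory chain Mylpf had 11.4 and 19.3 TPM, far below the Myl1 level in both libraries, with 211 and 316 estimated counts. Myl10, the remaining regulatory light chain gene examined, had no count in either library, where 3 counts would give 0.142 and 0.151 TPM. Embryonic skeletal heavy chain Myh3 had 0.58 and 1.30 TPM. The part of skeletal muscle RNA in the Myl1 value was not tested.

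Smooth muscle and non-muscle forms came below the 4 chamber chains. Myl9, the smooth muscle regulatory chain, on chromosome 2 (156775420 to 156781658, plus strand), had 1318 TPM in replicate 1 and 1519 TPM in replicate 2 (1419 ± 142, SD, n = 2; rank 53). The smooth muscle markers set beside it summed to 1238 and 1444 TPM, with 5 of 6 at 1 TPM or more in both libraries and the sixth, Lmod1, at 0.97 and 1.11 TPM. Acta2, the smooth muscle actin gene that embryonic heart muscle also expresses, made up 956 and 1093 TPM of these sums. Smooth muscle heavy chain Myh11, a defining marker, was at 2.14 and 2.54 TPM. The actin-binding calponin gene Cnn1 (139 TPM on average), Tagln (111 TPM) and the smoothelin gene Smtn (62.6 TPM) lay between. Myl9 was thus above each of the 6 smooth muscle markers in both libraries, with Acta2 the nearest.

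Myl12a and Myl12b, the non-muscle regulatory chains whose openings are printed above, lie next to each other on chromosome 17 on the minus strand (70993656 to 71002878 and 70973133 to 70990890). Myl12a had 569 TPM in replicate 1 and 653 TPM in replicate 2 (611 ± 59, SD, n = 2; rank 171), and Myl12b had 95.8 and 101 TPM (98.5 ± 3.7, SD, n = 2; rank 1268). Their levels differed 6.19-fold, with no overlap between libraries, although their coding bases are 96.5% identical. Myl9 held 66.5% and 66.8% of the sum of these 3 regulatory chains, and was 2.32-fold above Myl12a.

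Of the essential chains placed here in the smooth and non-muscle class, 1 carried almost everything. Myl6, the smooth muscle and non-muscle essential chain, on chromosome 10 (128490860 to 128494145, minus strand), had 873 TPM in replicate 1 and 1028 TPM in replicate 2 (950 ± 110, SD, n = 2; rank 98). Its neighbour Myl6b, a slow skeletal and non-muscle essential chain (128494157 to 128498685, minus strand) had 0.59 and 0.71 TPM (rank 13131) from 16 and 18 estimated counts. The authors' credibility intervals for Myl6b ran from 0.337 to 0.910 TPM and from 0.416 to 1.06 TPM, so the second does not exclude 1 TPM. Myl6 held 99.93% of the pair in both libraries.

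Within each library the 10 genes kept the same order, and all 45 pairs had credibility intervals that did not overlap, in the same direction in both libraries. Those intervals cover the uncertainty of read assignment and counting only. By fold, 42 pairs were at least 1.5-fold apart in both libraries and 37 were at least 2-fold apart. The closest neighbours were Myl7 and Myl3, 1.17-fold apart within a library (log2 difference 0.23 ± 0.006, SD, n = 2), whose levels overlap across libraries: Myl3 in replicate 2 (3648 TPM) exceeded Myl7 in replicate 1 (3504 TPM). No other neighbours in the order overlapped across libraries. The widest step was the 152-fold one from Myl12b down to Myl6b, and the next was 3.56-fold, from Myl1 to Myl12b.

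Summed by class, regulatory chains exceeded essential chains both inside and outside the sarcomere. The sarcomeric regulatory chains Myl2 and Myl7 summed to 9523 TPM in replicate 1 and 11792 TPM in replicate 2, and the sarcomeric essential chains Myl3, Myl4 and Myl1 to 5189 and 6253 TPM. Their ratio was 1.84 and 1.89 (1.86 ± 0.036, SD, n = 2). The smooth and non-muscle regulatory chains (Myl9, Myl12a, Myl12b) summed to 1983 and 2273 TPM against 873 and 1029 TPM for Myl6 and Myl6b, a ratio of 2.27 and 2.21. Both ratios lay above 1 in both libraries and varied little between them. The sarcomeric essential sum includes the Myl4 transcript Myl4-204, not annotated as coding, at 522 and 673 TPM. A ratio without it was not computed. Sarcomeric genes gave 83.7% and 84.5% of the light chain total.

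**Figure D2:**
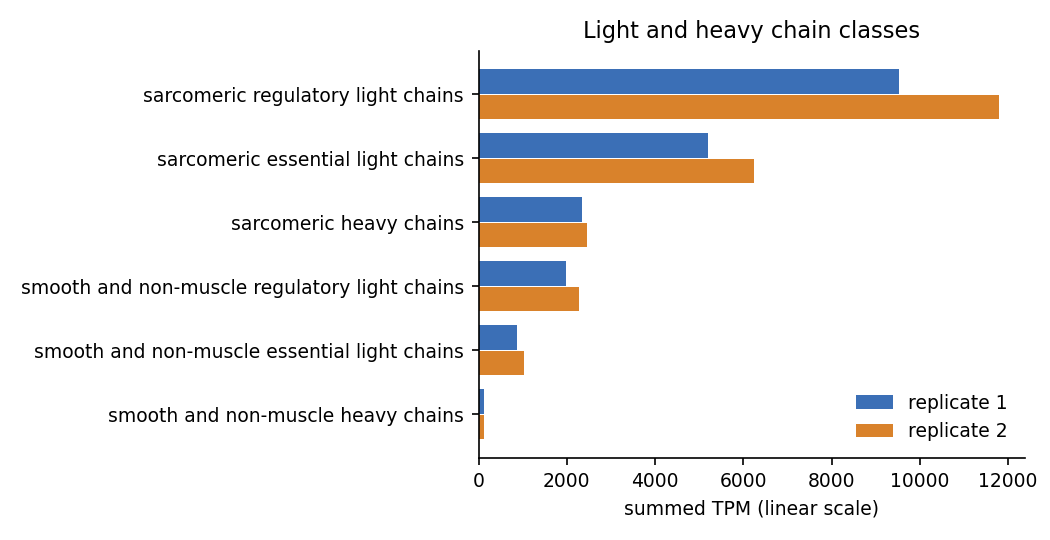
Summed TPM (linear axis) of each light chain class and of the matching heavy chains in replicate 1 (blue) and replicate 2 (orange). Regulatory bars exceed essential bars in both settings, and the heavy chain bars, 2350 and 2455 TPM for the sarcomere and 125 TPM outside it, are shorter than those of the light chains they bind.

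The heavy chains that carry these light chains were lower per unit length. The 10 sarcomeric heavy chain genes summed to 2350 TPM in replicate 1 and 2455 TPM in replicate 2, and 3 of them were at 1 TPM or more in both libraries: Myh7 (1746 TPM on average), Myh6, the α heavy chain (639 TPM), and Myh7b (15.5 TPM). The sarcomeric regulatory chains stood at 4.05 and 4.80 times that sum and the essential chains at 2.21 and 2.55 times. Outside the sarcomere the 4 heavy chain genes summed to 125 TPM in each library, led by Myh10 (102 TPM) and Myh9 (19.9 TPM), the non-muscle IIB and IIA chains, with Myh14 at 0.63 TPM. The regulatory chains there stood at 15.8 and 18.1 times the heavy chains, and the essential chains at 6.98 and 8.21 times. TPM compares messages per length and not protein, and how evenly reads covered the long heavy chain transcripts was not tested.

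The enzymes that phosphorylate regulatory chains were also examined. Of 10 kinase genes, 8 were at 1 TPM or more in both libraries, with a median over the list of 9.16 TPM. Mylk3, the cardiac myosin light chain kinase, led with 152 TPM and then 175 TPM in the second library, and among the others were Dapk3 (25.8 TPM on average) and the citron kinase gene Cit (14.4 TPM). The skeletal muscle kinase gene Mylk2 (0.23 and 0.15 TPM) and Mylk4 (0.17 and 0.13 TPM) were below 1 TPM. Mylk, the smooth muscle and non-muscle kinase, had 4.28 and 4.48 TPM and is named here after its values were seen. Mylk3 was thus above every other kinase on the list in both libraries, below Myl2 and Myl7 and above Myl12b.

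The list for the phosphatase that removes the phosphate also holds inhibitor genes. All 9 listed genes were at 1 TPM or more, with a median of 74.7 TPM, which is the value of an inhibitor gene. The highest values on the list include genes of protein phosphatase 1 catalytic subunits: Ppp1ca (536 TPM on average), Ppp1cc (167 TPM) and Ppp1cb (75.9 TPM). These serve many complexes besides this one, so their levels are not a measure of this phosphatase. The inhibitor gene Ppp1r14c had 142 TPM. The genes of the myosin-targeting subunits, Ppp1r12a, Ppp1r12b and Ppp1r12c (named after their values were seen), had 43.8, 16.2 and 26.5 TPM on average, all below the list median. Of the myosin folding and thick filament genes all 8 were at 1 TPM or more, with a median of 54.0 TPM, led by Mybpc3, cardiac myosin-binding protein C (675 TPM), the chaperone genes Hsp90aa1 (582 TPM) and Unc45b (131 TPM), and Smyd1 (73.5 TPM).

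Transcript tables list 49 transcripts for the 10 genes, and 7 genes have more than 1. In 6 of these 7 a single transcript held over 80% of the gene's TPM in both libraries, and in 5 of 7 over 80% of its estimated counts. For Myl2 it was Myl2-201 (94.05% and 93.27%), for Myl9 Myl9-201 (98.52% and 98.89%) and for Myl12b Myl12b-201 (97.11% and 97.34%). For Myl12a it was Myl12a-201 (88.11% and 87.63% of TPM, 79.4% of counts on average), with Myl12a-206, from an upstream start, at 10.30% and 10.56%. Myl6, Myl6b and Myl7 have 1 listed transcript each, so the known splice forms of Myl6 cannot be separated here.

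Myl4 was the exception, with no transcript over 80%. Its coding transcript Myl4-202 held 67.94% of the TPM in replicate 1 and 66.02% in replicate 2. Myl4-204, annotated as retaining an intron and not as coding, held 28.02% and 30.24%, or 522 and 673 TPM from 8845 and 10651 estimated counts. The leading Myl4 transcript starts at 104577281, which is 26618 bases downstream of the RefSeq start of the gene, and the listed transcript from that far start, Myl4-201, held 0% and 0.14%. Such a distance was not particular to Myl4. The leading transcripts of Myl1 (9702 bases), Myl2 (8227 and 7762 bases) and Myl12a (4521 bases) also start downstream of RefSeq starts. The 2044 TPM of Myl4, and each share, ratio and pair above that uses them, include Myl4-204, which is not annotated to make the light chain.

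Myl3 was the member whose transcript shares moved most between the libraries. Myl3-201 held 90.96% in replicate 1 and 85.58% in replicate 2. Myl3-202, a shorter coding transcript that starts at 110765861 and is named after its values were seen, held 7.13% and 12.54%, from 3709 and 7424 estimated counts. Its credibility intervals, 165 to 247 TPM and 394 to 497 TPM, did not overlap. In every other gene with more than 1 transcript, the leading share differed by less than 2 percentage points between the libraries.

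**Figure D3:**
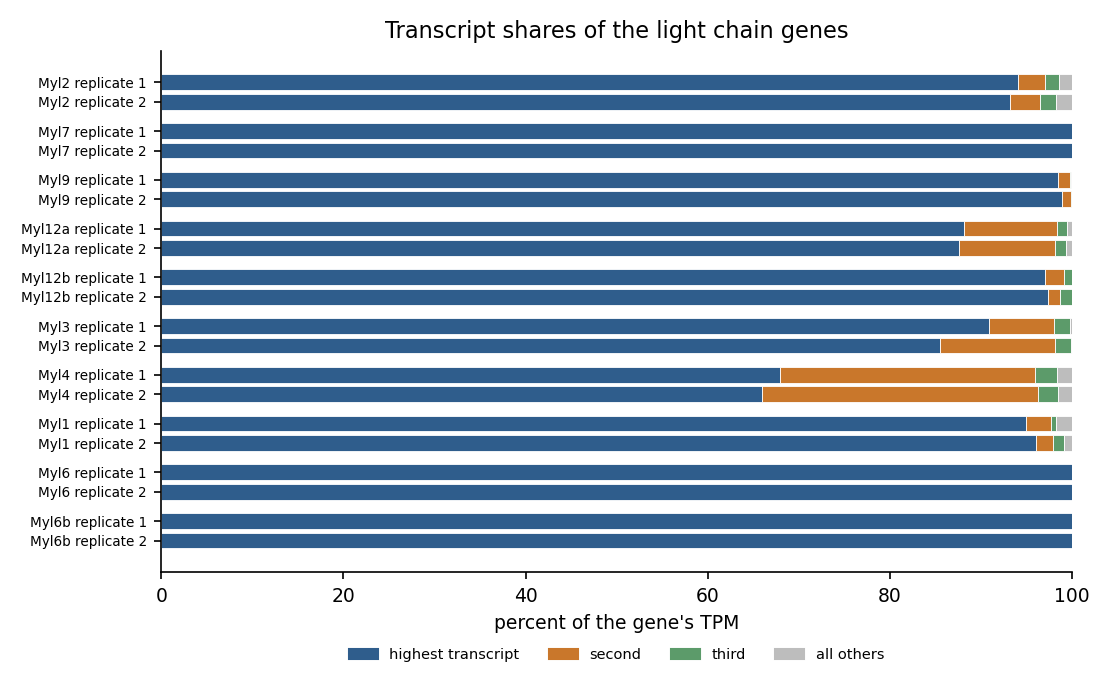
Percent of each gene's TPM held by its highest transcript (blue), the next ones (orange, then green) and all others (grey), for each library of the 10 light chain genes. Myl4 shows the largest orange share (28.02% and 30.24%), and Myl3 the widest difference between its 2 bars.

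The coding sequences of the leading transcripts were compared within and across 2 families, the essential and the regulatory chains. Over aligned bases the 10 pairs of essential chains were 70.0% to 79.5% identical. The 10 pairs of regulatory chains were 63.3% to 96.5% identical, a range that overlapped that of the 25 pairs across the families, 55.0% to 64.9%. As a share of the shorter coding sequence, the lowest regulatory pair was Myl7 with Myl9 (62.6%). The highest pair across the families was then Myl3 with Myl12a (60.1%). The closest pairs were Myl12a with Myl12b (96.5%, 498 of 516 bases), Myl9 with Myl12b (86.4%) and Myl9 with Myl12a (85.7%). Among essential chains Myl6 and Myl6b were closest (79.5%), followed by Myl3 and Myl4 (78.1%). The chamber pair Myl2 and Myl7 shared 64.5%, close to what each shared with the non-muscle Myl12a (65.5% for Myl2 and 64.9% for Myl7).

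**Figure D4:**
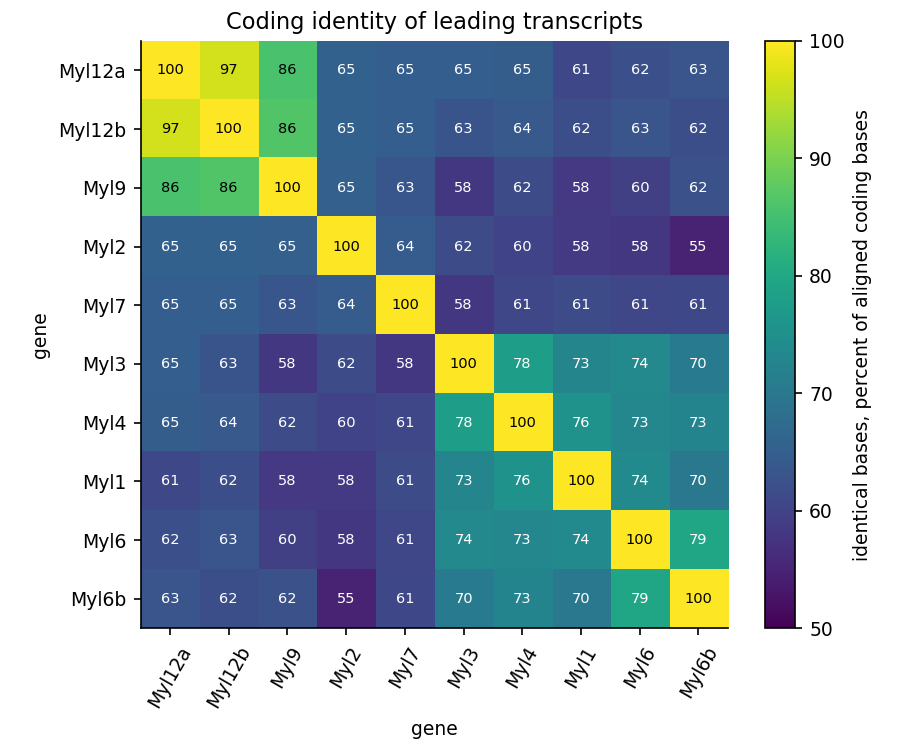
Identical bases as a percent of aligned coding bases (color scale and numbers) for every pair of leading transcripts, with regulatory genes first and essential genes last. The brightest block off the diagonal is Myl12a, Myl12b and Myl9 (85.7% to 96.5%), and all 25 pairs across the families are at or below 64.9%.

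Likeness matters for the levels where it is exact over the length of a read. For 6 of the 10 genes no 50-base window of the leading transcript occurred in another gene. Myl6 shared 53.2% of its windows with 5 processed pseudogenes, which together were assigned 275 and 359 estimated counts, 1.90% and 2.25% of the Myl6 count. Myl12a shared 22.8% of its windows with other genes, mostly with Myl12b, and Myl12b shared 9.69% of those in its GENCODE M21 model, which is 2143 bases long where the authors' table has 1253. Myl6b shared 0.92% with 3 processed pseudogenes, all among the 5 just named for Myl6. These 3 each match 23.1% to 41.9% of the Myl6 windows. They were assigned 133 and 157 estimated counts, where Myl6b had 16 and 18. Myl6, Myl12a and Myl12b were also the 3 genes whose estimated counts were not whole, so the authors divided reads between copies there. The split between Myl12a and Myl12b and the Myl6 level are uncertain to that extent. Genes that overlap add a further limit, and whether the authors counted by strand is unknown here: the Myl2 transcript Myl2-203 runs over Ccdc63 on the opposite strand.

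Between the 2 replicates the light chains stayed within the 5th to 95th percentile range of genes, mostly on its upper side. On scaled counts (trimmed mean of M-values, TMM), 0 of the 9 members with a mean count of at least 50 were 2-fold apart, where 0.741% of 13766 genes lay 2-fold or more above replicate 1 in replicate 2 and 0.269% lay 2-fold or more below. Myl6b was too low to enter. Of the 9, 8 were above 0 and 1, Myl12b, below, with log2 ratios from -0.07 to 0.18 and a median of 0.10, beside a median of -0.003 over all genes, whose 5th and 95th percentiles were -0.34 and 0.32. The highest ratios were those of Myl2 (0.18), Myl7 (0.15) and Myl3 (0.12), and 6 of the 9 lay above the 75th percentile of all genes, 0.09. With 1 library on each side the ratios carry no p-value.

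**Figure D5:**
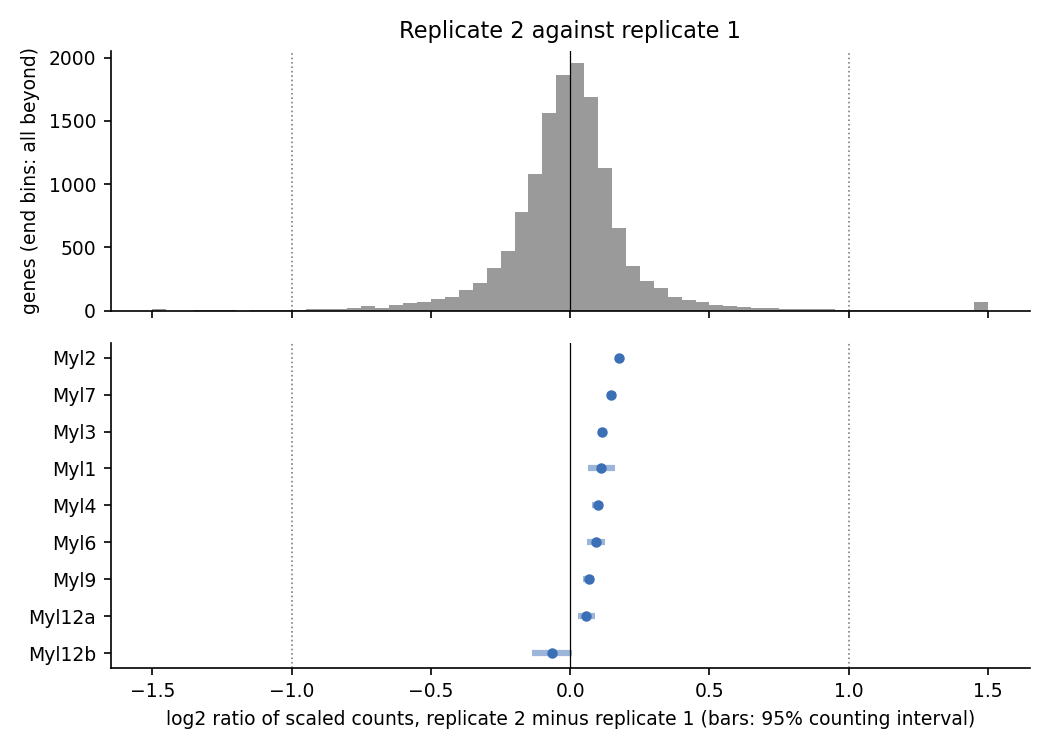
Log2 ratio of scaled counts, replicate 2 minus replicate 1: top, number of genes per bin for 13766 genes, with values beyond the ends gathered in the end bins; bottom, the 9 light chain genes with 95% counting intervals. Dotted lines mark 2-fold, and the members lie between -0.07 and 0.18, with 6 of the 9 above the 75th percentile of all genes (0.09).

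The scale decides how these ratios read. The deposited TPM was higher in replicate 2 in all 10 genes, by a median log2 ratio of 0.25, where all genes had a median of 0.15, and on the spike-in total the 9 members were 1.22 to 1.47 higher, where all genes had a median of 1.29. Myl12b changed sign on both of these scales. Beside these ratios stand the values that moved between the libraries: globin genes held 13.6% and 9.03% of TPM, spike-ins 11.1% and 5.04%, and the hepatocyte and skeletal marker sums given above were higher in replicate 2. On scaled counts the 4 fibroblast and cushion markers had a median log2 ratio of -0.39, the 4 epicardial markers one of -0.24 with none higher in replicate 2, and the 4 endothelial markers one of -0.11. The 4 erythroid markers ranged from -0.79 (Alas2) to 1.59 (Klf1). The 5 cardiomyocyte markers had a median of 0.08, with 3 higher in replicate 2. The 6 smooth muscle markers also had a median of 0.08, with 5 higher, beside the light chain median of 0.10. A rise of this size was thus not particular to the light chains. Nor was it shared by the most abundant heavy chains, Myh7 (-0.06), Myh6 (-0.18) and Myh10 (-0.18). Of the heavy chain genes with a ratio, 3 of 5 sarcomeric and 1 of 3 other genes were higher in replicate 2. The part of each of these values in the light chain ratios was not tested.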

How the data were processed

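Total RNA of embryonic heart was sequenced as 2 libraries, the biological replicates of 1 group by the submitters' labels. The authors computed each estimated count (expected count) from alignments of that 1 library's reads to the transcriptome, per the deposited file descriptions. They deposited, per library, gene and transcript tables of these counts, TPM, FPKM and each transcript's percent of its gene, with posterior means and the bounds of a credibility interval whose level is not stated. Per the deposited file descriptions the genome was mm10 and the annotation M4; for the aligner, quantifier, versions and strand setting the sources used here give nothing. The authors' interval bounds, here a signal in TPM, surround the posterior mean. In 7 of the 10 genes the deposited TPM therefore lies above its own upper bound in both libraries. These 7 are the members with a mean of 500 TPM or more, a level at which 65.2% of protein-coding genes did the same.

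Symbols, gene positions and transcript sequences come from GENCODE M21 on GRCm38, which matched 42462 of 43346 gene identifiers by stable ID, and start sites from RefSeq (GRCm38.p6). Spike-in and numbered features stayed out of the scaling. Means and SDs are over 2 libraries, whose small number limits precision; the total counts were 36733400 and 36060765. Expected counts were rounded and scaled by TMM (edgeR 4.0.16, R 4.3.3); log2 ratios used a pseudocount of 0.5 and a mean count of at least 50. DESeq2 1.42.0 size factors were an alternative. No p-value was computed, since each side of a comparison is 1 library. Counting intervals are at 95% and cover counting error only. Coding sequences were aligned globally in Biopython 1.88. The ratio was tested on simulated counts. A detected gene has at least 1 TPM in both libraries, and a pair was called when its credibility intervals did not overlap, in the same direction in both libraries.

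Named were all 10 genes, Mylpf and Myl10, up to 4 of the highest genes of each list, genes below 1 TPM in both libraries where a list had 4 or fewer, each gene's leading transcript and others at 10% or more in both libraries. Of the kinase list, 1 gene that this rule names is not reported here. The members and lists were chosen with earlier results of these data known. Alternatives are given in the closing section.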

Additional observations from a re-analysis of the deposited data

How the results depend on the processing

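With posterior mean TPM the 9 detected genes and 45 called pairs kept their counts, and the chamber shares and the 6 class ratios moved by less than the SD of the 2 libraries. Leaving out a replicate gives the other library's value (the regulatory to essential ratio in the sarcomere ran from 1.84 to 1.89), which with 2 libraries is always within 1 SD of the mean; removing spike-ins and globins cannot change a share, ratio or pair. Without Myl1 the sarcomeric regulatory to essential ratio was 1.98. Removing spike-ins and globins raised every TPM level beyond its spread, and counts per kilobase are on another scale. That removal also lowered the SD of every member but Myl12b. The SD of Myl2 went from 1054 to 527 TPM and that of Myl12a from 59.3 to 2.90 TPM. The SD of Myl12b rose from 3.74 to 6.78 TPM. A detection level of 5 TPM and adding Mylpf and Myl10 changed no call. DESeq2 size factors and a pseudocount of 5 left all 9 log2 ratios within their counting intervals; the total count of genes moved 5 of the 9 outside (Myl2, Myl3, Myl4, Myl7 and Myl9, all upward, to between 0.09 and 0.20). The number of genes at least 2-fold higher in replicate 2, 102 in the comparison above, was 12806 on the spike-in total, 154 from TPM, 426 at a minimum mean count of 10, 28 at a minimum of 200 and 2782 without a filter. The number at least 2-fold lower, 37 above, was 8, 294, 7 and 2382 on the spike-in total, at the minimums of 10 and 200 and without a filter. On the spike-in total 9 members were at least 2-fold apart; the cause was not tested. Measured as shares of counts in place of TPM, the leading transcripts held 71.1% to 99.7%, and Myl12a-201 fell below 80% (79.4%). Windows of 100 bases left 3 genes with a shared window. Protein identity, planned as a description, was not run because no protein table was used here; coding identity was computed in its place, chosen after the files were seen. No paired analysis was possible because there is 1 group. Depth limits Myl6b, Myl10 and the Myl1 long form, which rest on few counts.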
